A study of Homo sapiens with 9 samples.

Results

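The kinesin genes, which encode motors that walk along or take apart microtubules, were examined in SKOV3 cells, a human ovarian cancer cell line. Every protein-coding gene of the deposited count table whose symbol is KIF followed by a digit was taken, which gave 40 of the 58735 genes listed and of the 19951 protein-coding genes among them. Of these, 39 encode motors and were split by textbook function into 13 mitotic kinesins, 13 transport kinesins and 13 others. The remaining gene, KIF1BP (now named KIFBP), encodes a protein that binds kinesins and is itself no motor, and it is reported apart. RNA was sequenced from 3 groups with 3 libraries each, all of SKOV3 cells made to express a form of CDK9. They were cells with WT CDK9, cells with WT CDK9 given an ALK inhibitor for 24 h, and cells with Tyr19Phe CDK9 (Y19F in the labels). In the last, the tyrosine that ALK phosphorylates is replaced by phenylalanine. ALK is a receptor tyrosine kinase, and CDK9 is the kinase of P-TEFb that releases paused RNA polymerase II into elongation. Which inhibitor was given, at what dose and against which solvent is not given in the sources used here, nor whether each line was a single clone or a pool. Elsewhere the study used SKOV3 lines with stable FLAG-tagged CDK9 and lines in which CDK9 was put back after its depletion, and which kind gave these libraries is likewise not given. A difference between the 2 lines therefore cannot be told apart from a difference between clones, and the p-values cover the spread between libraries, which may be technical.

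Kinesins bind microtubules through a motor domain that hydrolyses ATP. Mitotic kinesins build the spindle, move chromosomes and split the daughter cells, and their RNA is made mostly in late S phase, G2 and mitosis, so that bulk levels of these genes follow how many cells divide. Transport kinesins carry vesicles, organelles, RNA and ciliary material along microtubules, mostly towards the plus end, and most are made throughout the cell cycle, several of them most highly in neurons. In bulk RNA, fewer cells of a kind and less RNA per cell cannot be told apart.

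Library totals ranged from 18169050 to 29320184 counts, and the median total of the Tyr19Phe CDK9 libraries was 1.45 times that of the WT CDK9 libraries. The number of genes with at least 1 count was lowest in ALK inhibitor replicate 2 (19944) and Tyr19Phe CDK9 replicate 3 (20635), against 21241 to 22744 in the others. CDK9 RNA, summed over the endogenous gene and any transgene reads, measured 48.6 ± 1.03, 45.6 ± 1.77 and 55.0 ± 3.94 CPM (counts scaled to a total of 1000000 per library after TMM normalization, mean ± SD, n = 3) in the WT, inhibitor and Tyr19Phe groups. CDK9 RNA was higher in the Tyr19Phe than in the inhibitor group by 0.27 on the log2 scale (edgeR adjusted p = 0.00961). Against WT CDK9 its log2 fold changes were -0.09 after the inhibitor (edgeR adjusted p = 0.67) and 0.18 with Tyr19Phe CDK9 (edgeR adjusted p = 0.106). These counts do not tell the forms of CDK9 apart. All 6 epithelial and SKOV3 markers were expressed (summed level 4906 to 5718 CPM over the 9 libraries), and single markers moved: after the inhibitor 2 rose (ERBB2, KRT19) and 1 fell (KRT7), and in Tyr19Phe CDK9 cells 3 fell (KRT19, EPCAM, ERBB2) and 2 rose (KRT8, KRT18), by edgeR's test at an adjusted p under 0.05. ALK RNA was barely detected, with 0 to 5 counts per library (at most 0.267 CPM), and was not tested. The 8 fibroblast, leukocyte and endothelial markers summed to 0.237 to 2.11 CPM, and the 6 neuronal markers to 22.7 to 57.6 CPM. Most of the neuronal sum was MAP2, a microtubule-associated protein, with 33.5 ± 3.69, 52.8 ± 2.07 and 25.2 ± 4.55 CPM in the 3 groups, which rose after the inhibitor by 0.66 on the log2 scale (edgeR adjusted p = 6.14e-05) and fell in Tyr19Phe CDK9 cells by 0.41 (edgeR adjusted p = 0.00554). Of the other neuronal markers, SNAP25 was at 0 counts in every library and none passed the test. The part of MAP2 and of the epithelial markers in the results on kinesins was not tested.

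Of the 40 members, 36 had enough counts to be tested, 12 mitotic, 12 transport and 11 other kinesins and KIF1BP. The 4 that did not were KIF2B and KIF19, with 0 counts in every library, KIF25, with 0 to 9 counts, and KIF1A, a neuronal vesicle motor, with 0 to 10 counts. A level of 0 counts allows up to 3 counts, which is 0.102 to 0.165 CPM at these depths, and covers counting error only.

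Levels can be compared between genes only per length, and were expressed as CPM per kb of the gene length listed in the deposited table. By that measure KIF5B, the ubiquitous heavy chain of conventional kinesin, stood far above the rest, with 97.0 ± 2.47 CPM per kb in WT CDK9 cells (mean ± SD, n = 3), and alone made up 19.97% ± 0.667 of the summed level of the motors. Next came 3 mitotic kinesins, KIF23 with 37.9 ± 1.34, KIF18B with 36.7 ± 2.16 and KIF2C with 36.5 ± 2.41 CPM per kb. Their ranges of mean ± SD overlapped. The Golgi and vesicle motor KIF1C followed with 31.9 ± 1.29. KIF4A (27.6 ± 0.897), KIF22 (26.6 ± 0.501), KIF11 (22.1 ± 0.626) and KIF20A (21.9 ± 1.69 CPM per kb) completed the genes above 20 CPM per kb. The other tested members ranged from 18.5 down to 0.0278 CPM per kb. The neuronal heavy chains KIF5A and KIF5C, close relatives of KIF5B, measured 0.0897 ± 0.0352 and 0.0971 ± 0.0169 CPM per kb.

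**Figure D1:**
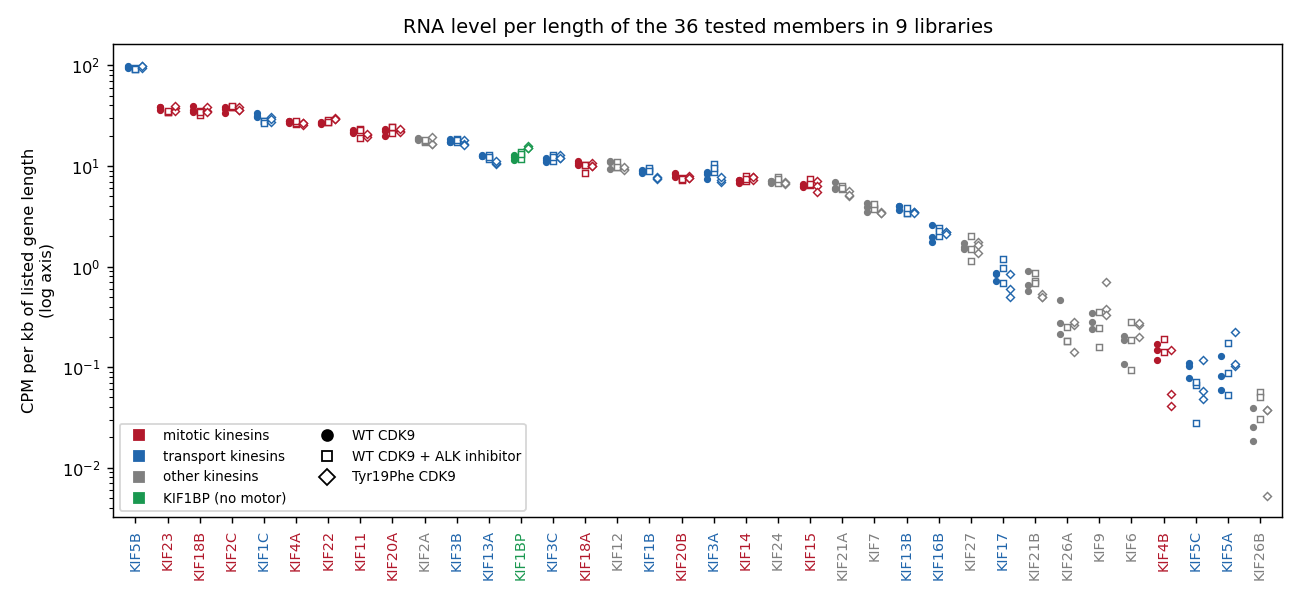
RNA level per length (CPM per kb, log axis) of the 36 tested members, ordered by their mean in WT CDK9 cells. Each point is 1 library, filled for WT CDK9, open squares for the ALK inhibitor and open diamonds for Tyr19Phe CDK9; colours mark the class, and libraries at 0 cannot be drawn on this axis. KIF5B stands at 97.0 CPM per kb and the next 8 genes, 7 of them mitotic, between 21.9 and 37.9.

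Summed as a class, the mitotic kinesins differed between the groups by less than the spread between libraries. Their sum per length was 241.7 ± 4.02 CPM per kb in WT CDK9 cells, 239.0 ± 9.13 after the ALK inhibitor and 240.2 ± 1.01 in Tyr19Phe CDK9 cells, and these ranges overlapped. The transport kinesins summed to 194.7 ± 1.42, 187.8 ± 1.63 and 188.5 ± 1.90 CPM per kb. All 3 libraries of the inhibitor group (186 to 189) and of the Tyr19Phe group (187 to 190.5) lay below the 3 WT CDK9 libraries (193 to 196). After the inhibitor this rested on KIF5B and KIF1C, the most abundant transport kinesins, whose group means went from 97.0 to 92.5 and from 31.9 to 27.5 CPM per kb. Without these 2 genes, left out after the values were seen, the transport sum was 65.8 ± 0.754 with WT CDK9, 67.8 ± 1.49 after the inhibitor and 61.6 ± 0.169 CPM per kb with Tyr19Phe CDK9, so that the Tyr19Phe libraries lay below the WT CDK9 libraries and the inhibitor libraries just above them. Mitotic kinesins made up 49.8% ± 0.420, 50.3% ± 1.07 and 50.7% ± 0.334 of the motors' summed level.

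Most promoters of the mitotic kinesins held TTTGAA or TTTAAA, which those of the transport kinesins mostly lacked, and are shown for that reason. Genes expressed in G2 and mitosis are known to carry a cell cycle genes homology region (CHR), with the core TTTGAA or TTTAAA, which the MuvB complex binds through LIN54, often downstream of CCAAT boxes bound by NF-Y. RefSeq promoters (GRCh38.p14, 250 bases before to 50 after the gene start) were found for 34 of the 40 members; KIF13B, KIF19, KIF21B, KIF26B, KIF27 and KIF5A had no entry in the table used. Both strands were searched, and a gene counted if any of its listed starts held the motif. TTTGAA was found in 9 of 13 mitotic kinesins (69.2%), 1 of 11 transport kinesins (KIF5B) and 0 of 9 others, against 18.2% of 27305 genes with an entry. TTTGAA or TTTAAA together with CCAAT was found in 9 of 13 mitotic, 1 of 11 transport and 0 of 9 other kinesins, against 11.2% of all genes. Counted by itself, CCAAT was found in 10 of 13 mitotic (76.9%), 4 of 11 transport (36.4%) and 3 of 9 other kinesins (33.3%). Its share over all genes was 39.7%, near that of the transport and other kinesins. The hexamers do not overlap each other and can share at most 1 end base with CCAAT. A match is a description, not a shown binding site. The stretches printed run from 80 bases before to 30 after the start, 5′ to 3′ along the gene, with the 3 motifs in capitals wherever they occur on either strand. They belong to KIF23 at chr15:69414269-69414378 on the plus strand, KIF18B at chr17:44947744-44947853 on the minus strand, KIF4A at chrX:70290024-70290133 on the plus strand, KIF11 at chr10:92593050-92593159 on the plus strand, KIF20A at chr5:138179032-138179141 on the plus strand, KIF18A at chr11:28108127-28108236 on the minus strand and KIF14 at chr1:200620722-200620831 on the minus strand.
KIF23: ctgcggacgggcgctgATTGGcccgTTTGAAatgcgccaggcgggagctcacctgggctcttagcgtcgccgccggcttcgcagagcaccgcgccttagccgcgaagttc
KIF18B: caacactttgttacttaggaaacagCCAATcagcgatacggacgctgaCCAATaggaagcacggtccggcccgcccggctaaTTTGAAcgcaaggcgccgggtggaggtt
KIF4A: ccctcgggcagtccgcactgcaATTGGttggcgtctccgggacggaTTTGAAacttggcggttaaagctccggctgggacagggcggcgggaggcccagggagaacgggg
KIF11: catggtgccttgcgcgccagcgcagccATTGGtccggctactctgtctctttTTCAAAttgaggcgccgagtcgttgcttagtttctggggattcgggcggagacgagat
KIF20A: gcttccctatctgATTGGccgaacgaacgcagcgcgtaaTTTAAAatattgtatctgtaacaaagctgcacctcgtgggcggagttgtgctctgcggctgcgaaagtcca
KIF18A: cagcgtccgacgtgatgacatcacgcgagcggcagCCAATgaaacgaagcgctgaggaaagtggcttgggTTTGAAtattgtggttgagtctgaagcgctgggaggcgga
KIF14: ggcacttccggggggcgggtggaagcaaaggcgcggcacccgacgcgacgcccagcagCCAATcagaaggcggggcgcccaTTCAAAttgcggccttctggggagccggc

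In 6 of these 7 mitotic kinesins a CCAAT box lay before a TTTGAA core, and in KIF20A it lay before a TTTAAA core. All 7 come from the 9 of 13 mitotic kinesins that held both motifs, so the presence of both here follows from the choice. KIF15 held TTTGAA only, KIF2C held TTTAAA only, KIF22 held CCAAT only, and KIF2B, which had no counts here, held none of the motifs. For contrast, the same stretch is shown for the 3 transport kinesins that passed the test in a comparison with WT CDK9 cells, none of which holds a capitalised motif there: KIF1C at chr17:4997870-4997979 on the plus strand, KIF13A at chr6:17987606-17987715 on the minus strand and KIF1B at chr1:10210626-10210735 on the plus strand. The nearest start of KIF1B was used, and 2 of its other listed starts hold CCAAT. The same stretch of the transport kinesin KIF5B, not printed, holds CCAAT.
KIF1C: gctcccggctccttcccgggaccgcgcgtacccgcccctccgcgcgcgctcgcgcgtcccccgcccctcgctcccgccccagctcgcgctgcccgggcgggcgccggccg
KIF13A: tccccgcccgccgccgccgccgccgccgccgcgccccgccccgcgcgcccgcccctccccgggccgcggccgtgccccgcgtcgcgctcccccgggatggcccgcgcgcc
KIF1B: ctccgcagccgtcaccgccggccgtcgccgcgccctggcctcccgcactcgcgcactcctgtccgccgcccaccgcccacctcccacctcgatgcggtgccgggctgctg

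**Figure D2:**
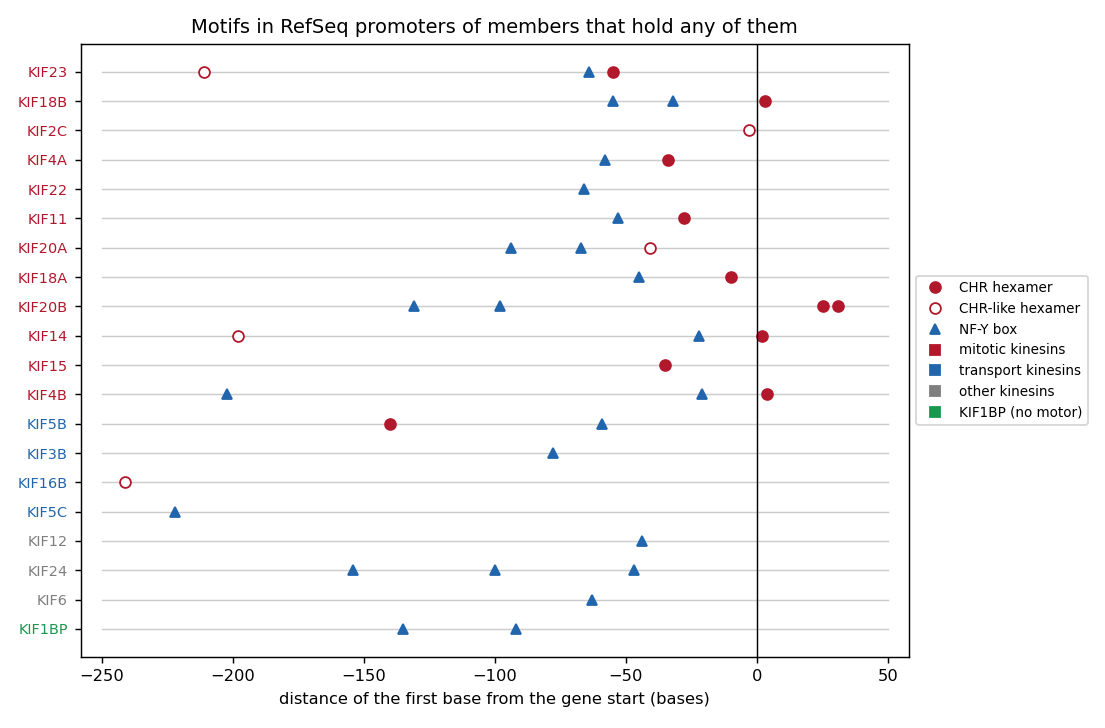
Positions of the motifs along the RefSeq promoters of the members that hold any of them, as the distance of the motif's first base from the gene start in bases, for the listed start nearest to that of the count table. Filled circles mark TTTGAA, open circles TTTAAA and triangles CCAAT, on either strand; filled circles stand on 9 of the mitotic kinesins and on KIF5B alone among the others.

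The ALK inhibitor comparison, WT CDK9 cells with against without the drug, shows which of these RNAs differ with the drug. Whether a difference runs through ALK was not tested. In it 1 of the 36 tested members passed the test, KIF1C, which fell, and 0 rose (edgeR's quasi-likelihood test, adjusted p under 0.05 over 16350 genes), where 4.55% of all tested genes passed, 2.73% lower and 1.82% higher. At an unadjusted p under 0.05 there were 4 members, and DESeq2 called 1. The Tyr19Phe comparison, which shows which differ between the lines with Tyr19Phe and with WT CDK9, shares its WT CDK9 libraries with the first. There 3 members fell, KIF1B, KIF13A and KIF21A, and 1 rose, KIF1BP, where 18.0% of all tested genes passed, 10.4% lower and 7.61% higher. At an unadjusted p under 0.05 there were 8, and DESeq2 called 6, adding KIF1C (lower) and KIF22 (higher). The share of members called, 2.78% and 11.1%, lay below the share of all genes in both comparisons. With 36 members this rests on few genes and does not set them apart.

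**Figure D3:**
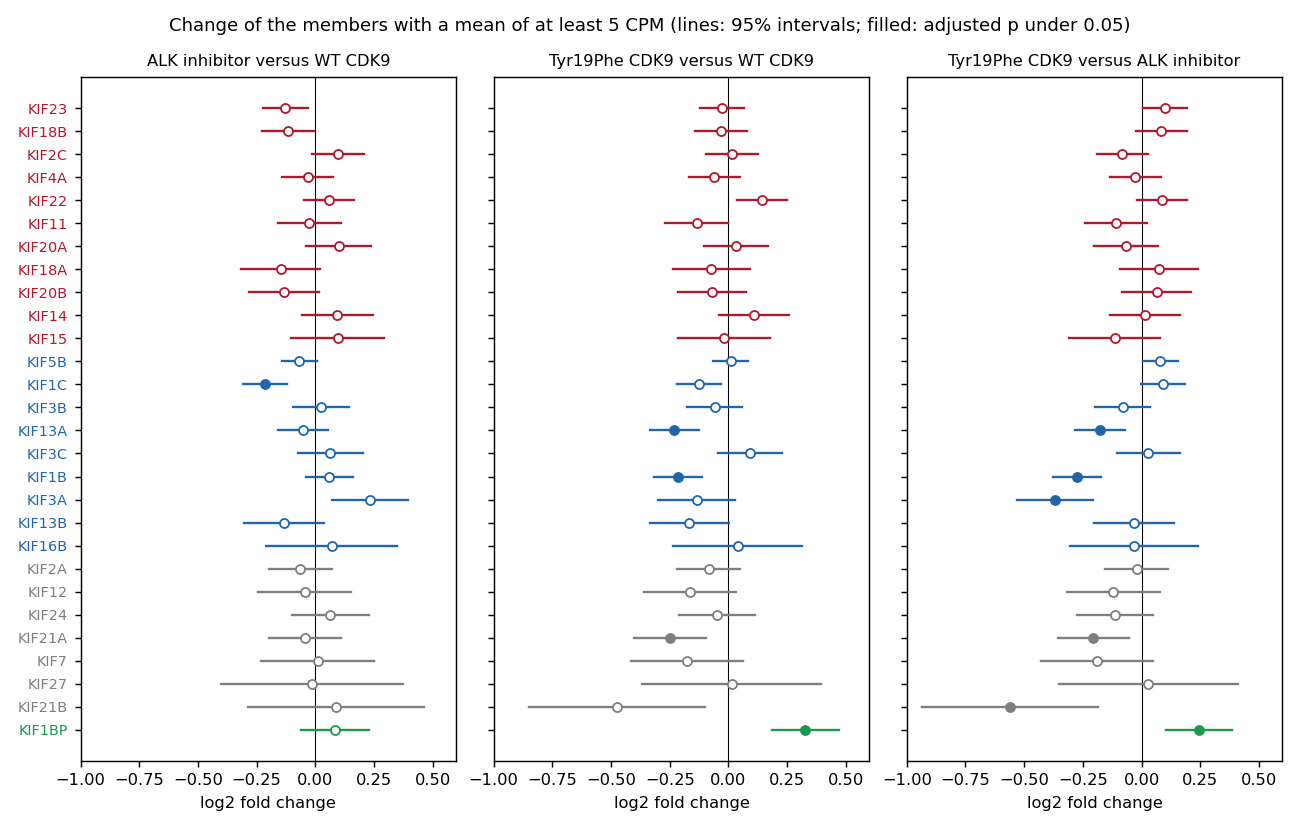
Log2 fold change (x axis) of the 28 members with a mean of at least 5 CPM in the 3 comparisons, with 95% intervals from the edgeR fit; filled points have an adjusted p under 0.05 and colours mark the class (red mitotic, blue transport, grey other, green KIF1BP). The mitotic kinesins lie between -0.15 and 0.14 in the comparisons with WT CDK9 and carry no filled point, while filled points among the transport kinesins all lie below 0.

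Of the mitotic kinesins, 0 of 12 passed edgeR's test in either comparison with WT CDK9 or in the direct comparison of the Tyr19Phe and inhibitor groups. Over all 16350 tested genes 4.55%, 18.0% and 20.7% passed in these comparisons, and at those shares few of 12 genes would pass. At an unadjusted p under 0.05 there were 2, 2 and 1, against 2473, 4739 and 5145 of all tested genes. DESeq2 called 0, 1 (KIF22, higher in Tyr19Phe CDK9 cells) and 0. Leaving out KIF4B, which had 0 to 17 counts, the 11 log2 fold changes ran from -0.15 to 0.10 with a median of -0.03 after the inhibitor, and from -0.14 to 0.14 with a median of -0.03 in Tyr19Phe CDK9 cells, where the medians of all tested genes were -0.0010 and 0.0035. The 95% intervals of these 11 genes reached no further than -0.32 and 0.29 after the inhibitor and -0.27 and 0.26 in Tyr19Phe CDK9 cells.

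KIF11 (gene span in the deposited table, GRCh38, chr10:92593286-92655395), the plus-end motor that pushes spindle poles apart, measured 105, 111 and 107 CPM in the WT CDK9 libraries, 91.6, 113 and 112 after the inhibitor and 97.7, 94.3 and 101 with Tyr19Phe CDK9. All 3 Tyr19Phe libraries lay below the WT CDK9 libraries, but the log2 fold change of -0.14 did not pass the test (edgeR adjusted p = 0.164), and inhibitor replicate 1 stood apart from the other two of its group. Without that library the direct comparison of the Tyr19Phe and inhibitor groups gave -0.20 for KIF11 and passed (edgeR adjusted p = 0.0241), against -0.11 with it (edgeR adjusted p = 0.261).

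KIF23 (chr15:69414246-69448427), the motor of the centralspindlin complex of the midzone, measured 239, 253 and 255 CPM with WT CDK9, 226, 225 and 233 after the inhibitor and 247, 229 and 257 with Tyr19Phe CDK9. The inhibitor libraries lay below all WT CDK9 libraries, with a log2 fold change of -0.13 that did not pass (edgeR adjusted p = 0.134), and the Tyr19Phe libraries overlapped both groups. Without Tyr19Phe replicate 2, KIF23 was higher in Tyr19Phe CDK9 than in inhibitor-treated cells by 0.15 on the log2 scale (edgeR adjusted p = 0.0368), against 0.10 with all libraries (edgeR adjusted p = 0.131). KIF20A, which brings the chromosomal passenger complex to the midzone, measured 89.0, 91.9 and 79.2 CPM with WT CDK9, 84.3, 97.5 and 96.9 after the inhibitor and 87.7, 85.3 and 93.1 with Tyr19Phe CDK9, and all groups overlapped.

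KIF4A, a chromosome arm and midzone kinesin, measured 120.4, 127 and 128 CPM with WT CDK9, 119, 121 and 127 after the inhibitor and 122, 115 and 123 with Tyr19Phe CDK9. KIF2C, which takes tubulin off microtubule ends at kinetochores, measured 124, 141 and 134 CPM with WT CDK9, 141, 141 and 145 after the inhibitor and 132, 139.65 and 132 with Tyr19Phe CDK9. KIF18A, which limits the length of kinetochore microtubules, measured 47.6, 52.7 and 49.7 CPM, 40.0, 47.9 and 47.4 CPM, and 49.5, 46.2 and 46.7 CPM in the same order of groups. For these 3 genes the groups overlapped in both comparisons with WT CDK9. Their log2 fold changes were -0.03, 0.10 and -0.15 after the inhibitor and -0.06, 0.01 and -0.07 in Tyr19Phe CDK9 cells.

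KIF22 (chr16:29790719-29805385), a chromosome-binding kinesin that pushes chromosome arms away from the poles, was the mitotic kinesin nearest to the threshold, and is described for that reason after its values were seen. It measured 114, 117 and 113 CPM with WT CDK9, 118, 124 and 117 after the inhibitor and 125, 129 and 126 with Tyr19Phe CDK9. Each Tyr19Phe library lay above every other library, with a log2 fold change of 0.14 over WT CDK9 cells (SE 0.052, edgeR adjusted p = 0.0513). It passed under 7 of the alternatives, with adjusted p (edgeR or DESeq2) from 0.0189 under scaling by library size alone to 0.0477 under scaling by DESeq2's size factors. The 124 tested genes within 5 Mb of KIF22 moved by a median of 0.14 on the log2 scale in the same comparison. The part of that stretch of chromosome 16 in the value of KIF22 was not tested.

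**Figure D4:**
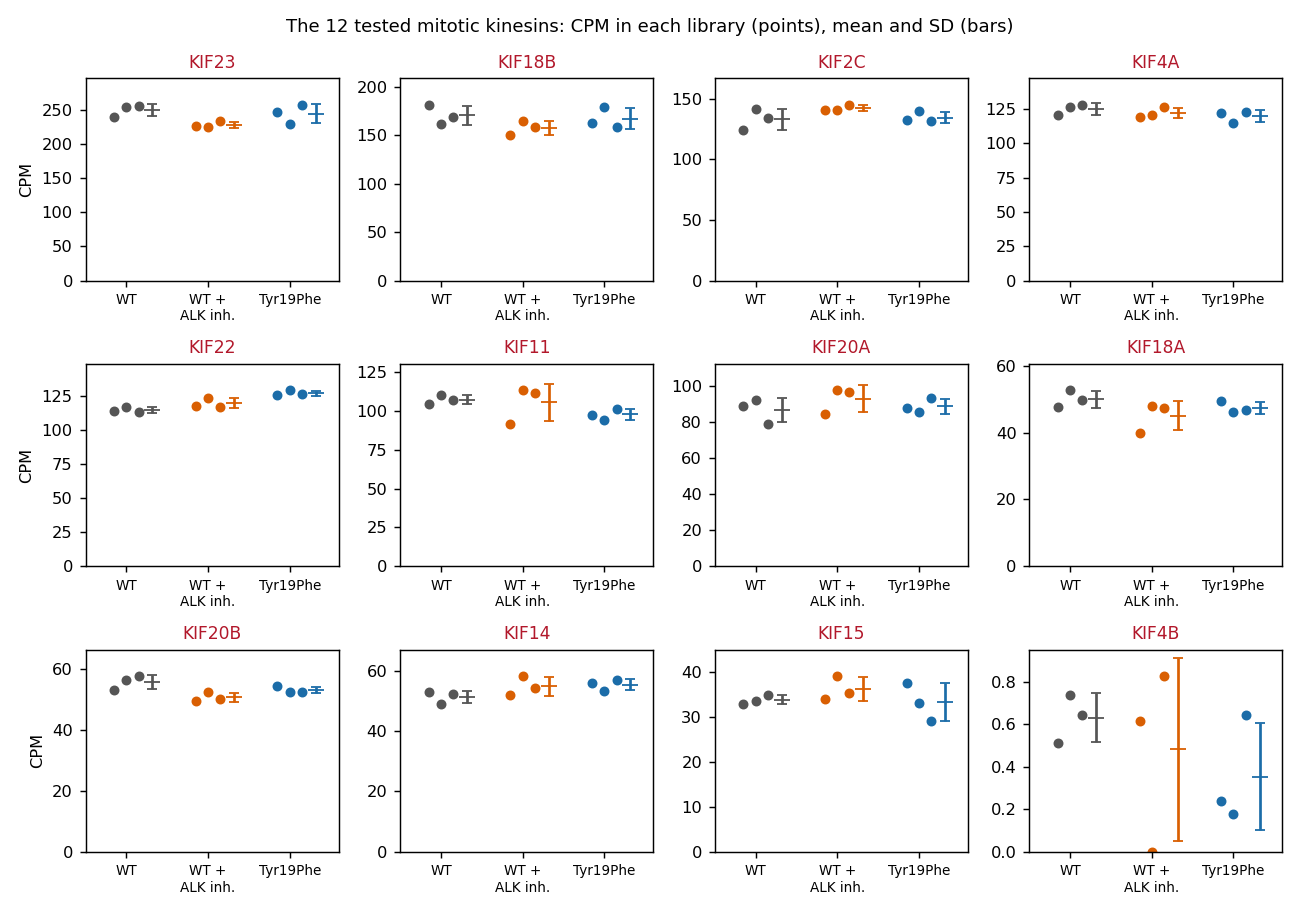
CPM of the 12 tested mitotic kinesins in each of the 9 libraries (points; grey WT CDK9, orange ALK inhibitor, blue Tyr19Phe CDK9), with the mean and SD of each group beside them; each axis starts at 0. The group means of the 11 genes other than KIF4B lie close together, and KIF22 shows the Tyr19Phe libraries at 125 to 129 CPM above the other 6 at 113 to 124.

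Among the transport kinesins, 1 of 12 fell after the inhibitor (KIF1C) and 2 of 12 fell in Tyr19Phe CDK9 cells (KIF1B and KIF13A), and none rose in either. These are 8.33% and 16.7%, against 2.73% and 10.4% of all tested genes, and rest on so few genes that they do not set the class apart. At an unadjusted p under 0.05 there were 2 and 3, against 2473 and 4739 of all 16350 tested genes. DESeq2 called 1 and 3 lower and none higher. The median log2 fold change of the class was 0.04 after the inhibitor and -0.13 in Tyr19Phe CDK9 cells, with 5 and 8 of 12 genes below 0. The first median ran from -0.0171 to 0.0186 when 1 library was left out, being below 0 without WT CDK9 replicate 3 or inhibitor replicate 3.

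KIF1C (chr17:4997948-5028401), which moves vesicles and mRNA and takes part in Golgi traffic and podosome turnover, measured 270.3, 286 and 265 CPM in the WT CDK9 libraries, 239, 240.2 and 228 after the inhibitor and 237, 262 and 253 with Tyr19Phe CDK9. Every treated and every mutant library lay below every WT CDK9 library, and the treated and mutant groups overlapped. KIF1C fell by 0.22 on the log2 scale after the inhibitor (SE 0.046, 95% interval -0.31 to -0.12, edgeR adjusted p = 0.00276), to 0.861 of the WT CDK9 mean. Its log2 fold change in Tyr19Phe CDK9 cells was -0.13 (edgeR adjusted p = 0.0522), which DESeq2 put past the threshold (adjusted p = 0.038), as did the fit without Tyr19Phe replicate 2 (log2 fold change -0.15, edgeR adjusted p = 0.0327). The direct difference between the 2 groups was 0.09 (95% interval -0.0031 to 0.18, edgeR adjusted p = 0.175).

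KIF1B (chr1:10210805-10381603), which hauls synaptic vesicle precursors and mitochondria, measured 157, 152 and 161 CPM with WT CDK9, 163, 169 and 157 after the inhibitor and 139, 132 and 133 with Tyr19Phe CDK9. The 3 Tyr19Phe libraries lay below the other 6. KIF1B fell by 0.21 on the log2 scale against WT CDK9 cells (SE 0.049, 95% interval -0.32 to -0.11, edgeR adjusted p = 0.0018), and after the inhibitor its log2 fold change was 0.06 (edgeR adjusted p = 0.658). The direct comparison of the Tyr19Phe with the inhibitor group gave -0.27 (SE 0.049, edgeR adjusted p = 8.53e-05).

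KIF13A (chr6:17759183-17987623), which carries recycling endosomes and melanosome cargo, measured 141, 141 and 142 CPM with WT CDK9, 130.05, 143 and 136 after the inhibitor and 118, 119 and 125 with Tyr19Phe CDK9. Again the 3 Tyr19Phe libraries lay below the other 6. KIF13A fell by 0.23 on the log2 scale against WT CDK9 cells (SE 0.052, 95% interval -0.34 to -0.12, edgeR adjusted p = 0.00157), to 0.853 of their mean. Against the inhibitor group the log2 fold change was -0.18 (edgeR adjusted p = 0.0134), a call that was lost without inhibitor replicate 2 (edgeR adjusted p = 0.093), Tyr19Phe replicate 1 (0.0517) or Tyr19Phe replicate 2 (0.0521). The tested neighbours within 5 Mb had median log2 fold changes of 0.01 for KIF1B (75 genes) and -0.01 for KIF13A (35 genes) in the comparison of Tyr19Phe with WT CDK9.

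KIF3A (chr5:132692628-132737638), which pairs with KIF3B or KIF3C in the heterotrimeric kinesin that builds cilia, measured 56.7, 50.5 and 59.5 CPM with WT CDK9, 59.6, 71.5 and 65.0 after the inhibitor and 48.0, 49.9 and 53.9 with Tyr19Phe CDK9. The inhibitor libraries were the highest and overlapped neither group, with the lowest of them close to the highest WT CDK9 library. Against WT CDK9 the log2 fold changes were 0.23 after the inhibitor (edgeR adjusted p = 0.105) and -0.14 with Tyr19Phe CDK9 (edgeR adjusted p = 0.272), so neither passed. The Tyr19Phe group lay below the inhibitor group by a log2 fold change of -0.37 (SE 0.079, edgeR adjusted p = 0.000787). KIFAP3, the third subunit of that motor, named after its values were seen, likewise measured 28.8 ± 0.833, 35.4 ± 1.85 and 27.6 ± 0.661 CPM and differed between the Tyr19Phe and inhibitor groups by -0.36 (edgeR adjusted p = 0.00392). Its partners KIF3B and KIF3C did not pass in any comparison, with log2 fold changes between the Tyr19Phe and inhibitor groups of -0.08 and 0.03 (95% intervals -0.20 to 0.037 and -0.10 to 0.16).

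KIF5B (chr10:32009010-32056431) measured 586, 558 and 565 CPM with WT CDK9, 555, 537 and 538 after the inhibitor and 581, 557 and 585 with Tyr19Phe CDK9. The inhibitor libraries lay just below the other groups. Its log2 fold changes were -0.07 (95% interval -0.14 to 0.0064, edgeR adjusted p = 0.391) and 0.01 (95% interval -0.064 to 0.085, edgeR adjusted p = 0.898), the narrowest intervals of the members. The remaining transport kinesins with a mean of at least 5 CPM, KIF3B, KIF3C, KIF13B and KIF16B, had log2 fold changes between -0.17 and 0.09 in the comparisons with WT CDK9, and KIF17, KIF5A and KIF5C had group means below 5 CPM.

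**Figure D5:**
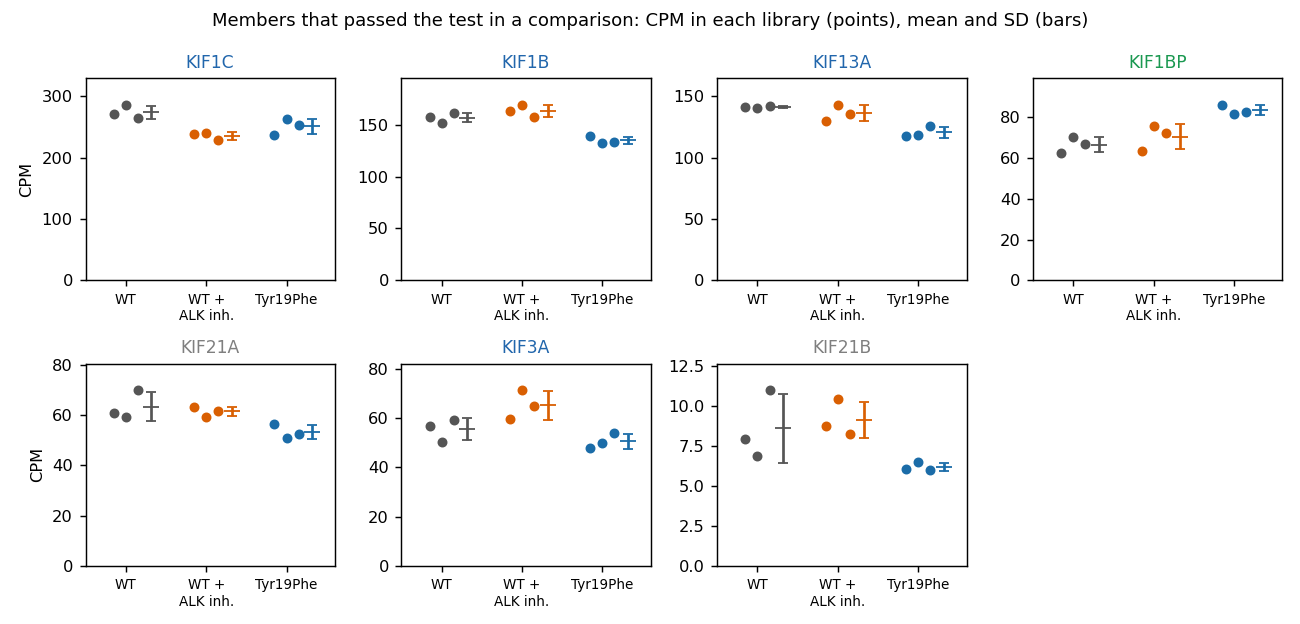
CPM of the 7 members that passed the test in a comparison, in each of the 9 libraries (points; grey WT CDK9, orange ALK inhibitor, blue Tyr19Phe CDK9), with the mean and SD of each group beside them; each axis starts at 0. The Tyr19Phe libraries lie below the other 6 for KIF1B, KIF13A, KIF21A, KIF21B and above them for KIF1BP, while KIF1C is highest in the WT CDK9 libraries and KIF3A in the inhibitor libraries.

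The 11 other kinesins tested include microtubule-shortening and ciliary kinesins and regulators of microtubule growth. After the inhibitor 0 of 11 passed edgeR's test, where 4.55% of all tested genes did, 0 at an unadjusted p under 0.05 and 0 with DESeq2. In Tyr19Phe CDK9 cells 1 of 11 fell, KIF21A, and none rose (2 at an unadjusted p under 0.05, 1 with DESeq2). That is 9.09% lower, near the 10.4% of all tested genes. KIF21A (chr12:39293228-39443390), which restrains microtubule growth at the cell cortex and carries the mutations of a congenital eye muscle fibrosis, measured 61.1, 59.3 and 70.1 CPM with WT CDK9, 63.4, 59.5 and 61.7 after the inhibitor and 56.6, 51.0 and 52.5 with Tyr19Phe CDK9. The Tyr19Phe libraries lay below the other 6, and WT CDK9 replicate 3 stood above its group. KIF21A fell by 0.25 on the log2 scale against WT CDK9 (SE 0.075, edgeR adjusted p = 0.01685). The call was lost without WT CDK9 replicate 3 (log2 fold change -0.17, edgeR adjusted p = 0.190), Tyr19Phe replicate 2 (-0.21, edgeR adjusted p = 0.0938) or Tyr19Phe replicate 3 (-0.23, edgeR adjusted p = 0.0664). The median of its 17 tested neighbours within 5 Mb was -0.08 between Tyr19Phe and WT CDK9 cells and -0.15 between the Tyr19Phe and inhibitor groups. The part of that stretch in the value of KIF21A was not tested.

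KIF21B (chr1:200969390-201023700), a relative of KIF21A best known from neurons and lymphocytes, was low, with 7.95, 6.86 and 11.01 CPM with WT CDK9, 8.73, 10.4 and 8.27 after the inhibitor and 6.06, 6.51 and 6.0 with Tyr19Phe CDK9. The Tyr19Phe libraries were again the lowest 3. The log2 fold change was -0.47 against WT CDK9 (SE 0.18, edgeR adjusted p = 0.0731) and -0.56 against the inhibitor group (SE 0.18, edgeR adjusted p = 0.027). The latter call was lost without inhibitor replicate 2 (edgeR adjusted p = 0.127), Tyr19Phe replicate 1 (0.0701) or Tyr19Phe replicate 3 (0.0762). The comparison with WT CDK9 passed without WT CDK9 replicate 2 (-0.61, edgeR adjusted p = 0.0304). KIF2A, a depolymerase of spindle poles and axons, sits beside IPO11 and DIMT1 and shares annotated bases with both. It measured 88.4, 84.6 and 83.4 CPM in the mean of the 3 groups and did not pass. It was counted with the other kinesins although KIF2B and KIF2C were counted as mitotic, and the class sums depend on that choice. KIF12, KIF24 and the Hedgehog regulator KIF7 had log2 fold changes between -0.18 and 0.06 in the comparisons with WT CDK9, and KIF7 overlaps TICRR over 47.7% of its span. KIF27, KIF26A, KIF26B, KIF6 and KIF9 had group means of 0.384 to 8.18 CPM.

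KIF1BP (chr10:68988721-69043544) clamps several motor domains and keeps them off microtubules, and its loss is known from Goldberg-Shprintzen syndrome. Other members also rose under some alternatives, but in the main edgeR fit KIF1BP was the only member that rose. It measured 62.6, 70.2 and 66.6 CPM with WT CDK9, 63.4, 75.6 and 72.4 after the inhibitor and 86.0, 81.5 and 82.6 with Tyr19Phe CDK9. The 3 Tyr19Phe libraries lay above the other 6. The log2 fold change against WT CDK9 was 0.33 (SE 0.070, 95% interval 0.18 to 0.47, edgeR adjusted p = 0.000853), a 1.25-fold rise. After the inhibitor it was 0.08 (edgeR adjusted p = 0.676). Against the inhibitor group it was 0.24 (edgeR adjusted p = 0.0106), a call lost without inhibitor replicate 1 (0.17, edgeR adjusted p = 0.114) or Tyr19Phe replicate 1 (0.22, edgeR adjusted p = 0.0511). The 83 tested genes within 5 Mb of KIF1BP on chromosome 10 moved by a median of 0.18 on the log2 scale between Tyr19Phe and WT CDK9 cells. The part of that stretch in the value of KIF1BP was not tested.

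The direct comparison of Tyr19Phe CDK9 with inhibitor-treated WT CDK9 cells shows which levels differ between these 2 groups. They differ in both line and treatment, so the parts of the mutation, the line and the drug cannot be told apart. Of the 36 members, 5 were lower in Tyr19Phe CDK9 cells (KIF1B, KIF3A, KIF13A, KIF21A and KIF21B) and 1 was higher (KIF1BP), where 20.7% of all tested genes passed, 11.1% lower and 9.57% higher. There were 9 at an unadjusted p under 0.05, and DESeq2 called 4 lower and 1 higher, without KIF21A. These counts depended on single libraries. The count lower was 2 without inhibitor replicate 2 and 3 without Tyr19Phe replicate 1, 2 or 3, and the count higher was 0 without inhibitor replicate 1 or Tyr19Phe replicate 1 and 2 without Tyr19Phe replicate 2. KIF21A, with a log2 fold change of -0.21 (edgeR adjusted p = 0.0481), kept its call only without Tyr19Phe replicate 1, and edgeR gave an adjusted p of 0.0581 to 0.179 without any one of the other 5 libraries of these groups. The class medians were -0.0062 for mitotic, -0.03 for transport and -0.11 for other kinesins.

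The partners of these motors were read from lists, each given by its counts. Of 26 kinesin light chains and cargo adaptors, 0 passed edgeR's test after the inhibitor (7 at an unadjusted p under 0.05, 2 higher with DESeq2). In Tyr19Phe CDK9 cells 5 fell and 4 rose, among them KIF1BP (12 at an unadjusted p under 0.05, 9 with DESeq2). That share was 34.6%, against 18.0% of all tested genes and 21.4% of protein-coding genes. KTN1, the kinesin receptor kinectin, fell by 0.28 on the log2 scale (edgeR adjusted p = 6.09e-07), from 896 ± 34.1 to 739 ± 22.2 CPM. FYCO1, which links late endosomes and autophagosomes to kinesin, fell by 0.42 (edgeR adjusted p = 0.000863). RHOT1, which anchors motors to mitochondria, fell by 0.33 (edgeR adjusted p = 0.00117). TRAK2, a mitochondrial adaptor, rose by 0.26 (edgeR adjusted p = 0.00298).

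Of 38 spindle and midzone partners, 2 fell and 0 rose after the inhibitor (8 at an unadjusted p under 0.05), and 7 fell and 2 rose in Tyr19Phe CDK9 cells, with list medians of -0.02 and -0.03. These shares, 5.26% and 23.7%, stand beside 4.55% and 18.0% of all tested genes and 5.41% and 21.4% of protein-coding genes, and are near them. ANLN, the contractile ring scaffold anillin, fell by 0.18 after the inhibitor (edgeR adjusted p = 0.00318). In Tyr19Phe CDK9 cells MKI67, which coats mitotic chromosomes, fell by 0.24 (edgeR adjusted p = 2.71e-05). The checkpoint genes MAD2L1 and BUB1B fell by 0.34 (edgeR adjusted p = 4.18e-05) and 0.21 (edgeR adjusted p = 0.00326). The condensin gene NCAPG fell by 0.20 (edgeR adjusted p = 0.00353). Of 13 regulators of G2/M transcription, 0 passed after the inhibitor (3 at an unadjusted p under 0.05, 1 with DESeq2), and 2 fell and 1 rose in Tyr19Phe CDK9 cells. That share, 23.1%, is near the 18.0% of all tested genes and the 21.4% of protein-coding genes. LIN54, the CHR-binding subunit of MuvB, fell by 0.37, from 47.8 ± 1.99 to 36.9 ± 3.67 CPM (edgeR adjusted p = 0.0014). RBL1, which encodes the p107 subunit of the repressive DREAM complex, fell by 0.26 (edgeR adjusted p = 0.00984). E2F7, a repressor, rose by 0.30 (edgeR adjusted p = 0.000615).

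Dynein walks the opposite way to most kinesins, and of 31 tested dynein and dynactin genes 0 passed after the inhibitor (5 at an unadjusted p under 0.05, 0 with DESeq2), while 4 fell and 2 rose in Tyr19Phe CDK9 cells, which at 19.4% is near the 18.0% of all tested genes. HOOK1, a dynein activating adaptor, fell by 0.86 (edgeR adjusted p = 6.21e-08), from 62.2 ± 4.51 to 34.2 ± 4.22 CPM. PAFAH1B1, the dynein regulator LIS1, fell by 0.30 (edgeR adjusted p = 5.13e-05). The heavy chain DYNC1H1 fell by 0.14 (edgeR adjusted p = 0.00399) and HOOK3 fell by 0.15 (edgeR adjusted p = 0.0172). ACTR1A, which forms the dynactin filament, rose by 0.20 (edgeR adjusted p = 0.0184).

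Tubulins form the track. Of 15 tested tubulin genes 2 rose after the inhibitor, TUBA1A by 0.74 (edgeR adjusted p = 5.02e-10) and TUBA4A by 0.37 (edgeR adjusted p = 1.84e-06), and in Tyr19Phe CDK9 cells 2 fell and 2 rose. These shares were 13.3% and 26.7%, against 4.55% and 18.0% of all tested genes and 5.41% and 21.4% of protein-coding genes. TUBA4A measured 188, 173 and 179.95 CPM with WT CDK9, 229, 231 and 239.81 after the inhibitor and 143, 130.3 and 135 with Tyr19Phe CDK9, and the 3 groups did not overlap. It fell in Tyr19Phe CDK9 cells by 0.41 (edgeR adjusted p = 1.3e-07) and TUBB4A fell by 0.82 (edgeR adjusted p = 0.00165). TUBB6 and TUBB4B rose by 0.23 (edgeR adjusted p = 0.000142) and 0.18 (edgeR adjusted p = 0.00126). Of the 5 kinesin genes whose symbols fall outside the rule, KIFC3 fell after the inhibitor by 0.21 (edgeR adjusted p = 0.014). The minus-end spindle motor KIFC1 rose in Tyr19Phe CDK9 cells by 0.18 (edgeR adjusted p = 0.0452). Each is 20% of the list, against 4.55% and 18.0% of all tested genes, and rests on 1 gene. Against the inhibitor group, Tyr19Phe CDK9 cells had more KIFC1 (0.24, edgeR adjusted p = 0.00473) and KIFC2 (0.23, edgeR adjusted p = 0.0388). There 20.7% of all tested genes passed. DESeq2 also called KIFC2 lower after the inhibitor (adjusted p = 0.0374). The kinetochore motor CENPE did not pass in any comparison.

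Near-identical copies limit 1 member. KIF4B is an intronless copy of KIF4A, and their annotated transcripts (GENCODE release 44) were 95.2% identical over 4345 aligned bases with 14.0% of 50-base windows in common. Reads from such windows cannot be told apart, and KIF4B had 0 to 17 counts. The transcripts of KIF5A and KIF5C were 72.5% and 70.1% identical to that of KIF5B over the aligned bases, with 0% of such windows shared. Whether reads were counted by strand is not given in the sources used here. Reads from bases that KIF9 shares with its antisense partner KIF9-AS1 therefore cannot be told apart. KIF9-AS1 overlaps 33.5% of the span of KIF9 and had 96.8% as many counts. The same limit holds for other members that overlap a gene on the opposite strand, such as KIF7, where TICRR had 301% as many counts.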

How the data were processed

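RNA of SKOV3 cells was sequenced in 3 groups of 3 libraries, grouped and numbered by the deposited labels. The authors deposited raw counts per gene, whole numbers without normalization. Per the labels' processing notes CASAVA, HISAT2 2.0.5 and featureCounts 1.5.0-p3 were used with GRCh38/hg38; the annotation and strandedness are not given in the sources used here. No batch is given.

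Counts were analysed with edgeR 4.0.16 (limma 3.58.1, R 4.3.3) and Python 3.11.15. Genes passed filterByExpr (minimum count 10, minimum total 15), libraries were scaled by TMM, and a quasi-likelihood fit of the 3 group means used all 9 libraries (6 residual degrees of freedom). P-values were adjusted by Benjamini-Hochberg over 16350 genes. Intervals are at 95%. The methods of the study name DESeq2, which was an alternative here (1.42.0). Also tried were other scalings (DESeq2's size factors, upper quartile, library size), other filters (none, 10 or more counts in each library, only protein-coding genes), the replicate number as a block, fits of the 2 groups compared, a threshold of 0.01, and leaving out each library in turn. The code was tested on simulated counts. No replicate pair agreed within sampling noise.

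Members and lists were chosen with earlier results of these data known. Every member is accounted for; values of each library are given for the members called in any comparison and for KIF11, KIF2C, KIF20A, KIF23, KIF4A, KIF18A, KIF1B, KIF1C, KIF3A and KIF5B, and of each list up to 5 called genes with the smallest adjusted p against WT CDK9 are named, for the marker lists in part. Protein sequences were not used here.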

Additional observations from a re-analysis of the deposited data

How the results depend on the processing

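The calls of KIF1C after the inhibitor, of KIF1B, KIF13A and KIF1BP in Tyr19Phe CDK9 cells, and of KIF1B and KIF3A between the Tyr19Phe and inhibitor groups were kept under every alternative run. The number of members called higher in Tyr19Phe against WT CDK9 cells rose from 1 to 2, KIF22 being added, under scaling by DESeq2's size factors, the upper quartile or library size, with DESeq2, with at least 10 counts in every library, with protein-coding genes only and under the replicate block. At an adjusted p under 0.01, 2 members instead of 5 were lower and 0 instead of 1 higher in Tyr19Phe than in inhibitor-treated cells. KIF21A lost its call against the inhibitor group under the upper quartile, DESeq2, no filter and protein-coding genes only (adjusted p from 0.0505 to 0.0616 by DESeq2 or edgeR). Of the named genes, 2 changed sign with all libraries kept or both doubted ones left out: KIF11 after the inhibitor, 0.000171 under scaling by library size, and KIF21B after the inhibitor, -0.014 in the alternative added after the data had been seen, which left out ALK inhibitor replicate 2 and Tyr19Phe replicate 3, the libraries with the fewest detected genes. In that alternative 2 members were lower in Tyr19Phe than in inhibitor-treated cells (KIF13A, KIF21A and KIF21B were lost), KIF21A was lost against WT CDK9 (edgeR adjusted p = 0.0611), and class medians moved to 0.046 (other, inhibitor), -0.16 (other, Tyr19Phe), 0.039 (mitotic, Tyr19Phe against inhibitor) and -0.064 (transport, Tyr19Phe against inhibitor). With at least 10 counts in every library the median of the other kinesins between these 2 groups was -0.061, as fewer genes were tested. Class medians near 0 also changed sign: that of the mitotic kinesins between these groups, -0.0062, was 0.0047 under the upper quartile, 0.020 with at least 10 counts in every library, 0.00406 with protein-coding genes only and 0.039 in the added alternative. After the inhibitor the median of the other kinesins, -0.016, was 0.00988 under scaling by library size and 0.046 in the added alternative, where that of the mitotic kinesins, -0.029, was 0.0068. The cause of the other changes was not tested.

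Same-numbered libraries did not deviate together over the tested genes (correlations of -0.0116 to 0.026). This gives low and high genes equal weight, so it cannot exclude that the replicate numbers pair the libraries, which the labels do not say. Under the replicate block KIF1C was called lower in Tyr19Phe CDK9 cells (edgeR adjusted p = 0.0345) and KIF22 higher (edgeR adjusted p = 0.0477), which made 4 lower and 2 higher.

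With each library left out in turn, the number of members lower in Tyr19Phe than in inhibitor-treated cells ran from 2 to 5 and higher from 0 to 2. Class medians, several of them changing sign, ran after the inhibitor from -0.0652 to 0.029 (mitotic), -0.0171 to 0.0186 (transport) and -0.0515 to 0.0465 (other), in Tyr19Phe against WT CDK9 cells from -0.14 to -0.0991 (transport) and -0.16 to -0.0625 (other), and against the inhibitor group from -0.0335 to 0.0338 (mitotic) and -0.0589 to 0.0035 (transport). Values near 0 that changed sign ran from -0.0757 to 0.0707 (KIF11), -0.0872 to 0.0361 (KIF21A) and -0.0493 to 0.31 (KIF21B) after the inhibitor, from -0.0257 to 0.0804 (KIF20A), -0.0599 to 0.0195 (KIF23), -0.0318 to 0.0635 (KIF2C) and -0.000555 to 0.0364 (KIF5B) in Tyr19Phe against WT CDK9 cells, and from -0.00439 to 0.12 (KIF18A) and -0.044 to 0.00578 (KIF4A) against the inhibitor group.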

Other observations

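The 3 motors that fell in Tyr19Phe CDK9 cells are all long genes: KIF13A spans 228 kb, KIF1B 171 kb and KIF21A 150 kb. This was looked at after their values were seen. Of the 11 tested members with a span of at least 100 kb, 3 fell in Tyr19Phe against WT CDK9 cells (27.3%), and of the 25 shorter ones 0 fell at an adjusted p under 0.05 with edgeR. Over all tested protein-coding genes the shares were 22.4% of 2649 long and 9.91% of 10496 shorter genes, so the long members lay near the share of long genes in general. Across genes, Spearman's rho between span and log2 fold change was -0.04 for the 36 members and -0.26 for the 28 averaging 5 CPM or more, and -0.17 and -0.23 for the protein-coding genes cut the same way; genes are not independent replicates. After the inhibitor the shares of protein-coding genes called lower were 4.19% of long and 2.93% of shorter genes.

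Of 7 kinesin-named genes of other biotypes, the pseudogenes KIF3AP1 and KIF4CP and the noncoding KIF25-AS1 had 0 counts in every library, KIF26B-AS1 had 2 counts in 1 library, and KIF9-AS1, KIF18BP1 and KIF28P had 0 to 62 counts per library.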
